A study of Mus musculus with 6 samples.

Results

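Cebpa, which encodes the adipogenic transcription factor C/EBPα, lies on mouse chromosome 7 near its relative Cebpg and among other genes with unrelated products. The genes described here are the 10 protein-coding neighbours Lsm14a, Kctd15, Chst8, Pepd, Slc7a10, Lrp3, Gpatch1, Rhpn2, Faap24 and Cep89, taken by symbol from a list of genes near Cebpa from which Cebpa and its relative Cebpg were left out. The list is not that of the nearest genes: Lsm14a lies 726 kb from Cebpa, while Nudt19, tested and 425 kb away, is not on it. All 10 listed genes were among the 35999 gene symbols with summed counts, and all 10 passed the filter on low counts that left 16069 genes for testing. Bulk RNA-seq was performed on whole inguinal white adipose tissue (iWAT) from 10-week-old female mice on the C57BL6/J background, chow-fed and in a random fed state, with lymph nodes removed. The 3 Cebpa_ASKO mice carried floxed Cebpa alleles and the AdipoQ-Cre transgene, and the 3 Cebpa_fl/fl controls carried the same floxed alleles without Cre. AdipoQ-Cre is driven by the adiponectin promoter, which turns on late in adipocyte differentiation and is also active in brown fat. Cells of iWAT that never express adiponectin therefore keep Cebpa in both groups. No batch that differs between the 6 libraries is given in the sample details used here, so an unrecorded batch could not be checked. Each library is taken as 1 mouse.

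The neighbours have distinct roles. Slc7a10 encodes Asc-1, a plasma membrane carrier of small neutral amino acids that is enriched in white adipocytes. Pepd encodes prolidase, which releases proline from dipeptides during collagen turnover. Genes that share a stretch of chromosome can share regulatory sequence. Where Cre is active, a floxed allele loses the coding part of the gene and leaves the surrounding DNA in place. The comparison asks which of the genes beside a deleted Cebpa differed in RNA level between the genotypes.

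Cebpa itself was at 448, 465 and 498 CPM (normalised counts per 1000000 counts) in the controls and at 37.7, 45.8 and 37.2 CPM in Cebpa_ASKO iWAT. The genotypes were far apart, with a log2 fold change of -3.55 ± 0.131 (SE; adjusted p = 0.000163). The libraries held 46237121 to 49477671 estimated counts in controls and 33141769 to 42243013 in Cebpa_ASKO, without overlap, so depth and genotype cannot be told apart. Markers of adipocytes summed to 30300 to 38000 CPM in controls and to 8570 to 10600 CPM in Cebpa_ASKO. All 12 were fitted below 0, edgeR called 7 and DESeq2 called 10, and none was at 0. Skeletal muscle markers summed to 650 to 911 CPM and to 2170 to 6250 CPM. All 15 were fitted above 0, edgeR called 12 and DESeq2 called 13. Mammary epithelial markers summed to 916 to 1960 CPM and to 2580 to 2670 CPM. Of these 12, edgeR called 0 and DESeq2 called 6, and 10 had an unadjusted edgeR p below 0.05. Schwann cell markers summed to 139 to 205 CPM and to 262 to 366 CPM. All 8 were fitted above 0, edgeR called 2 and DESeq2 called 4. Endothelial markers summed to 455 to 543 CPM and to 329 to 442 CPM, with 9 of 10 fitted below 0. Of these markers, edgeR called 2, both lower, and DESeq2 called 4. The sums overlapped between genotypes for macrophage (1200 to 3200 and 1960 to 2650 CPM), lymphocyte (71.0 to 559 and 70.0 to 91.7 CPM, with 559 in control 1 alone), fibroblast (7360 to 13200 and 9050 to 10900 CPM) and keratinocyte markers (41.8 to 78.7 and 39.9 to 46.3 CPM), none of whose markers was called by edgeR. In these lists 0, 6, 0 and 1 markers had an unadjusted p below 0.05, and DESeq2 called 2 lymphocyte markers. No marker gene was at 0 in every library. In whole tissue, fewer cells of a type and less RNA per cell cannot be told apart.

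Of the 10 neighbours, 3 were called at an adjusted p below 0.05. Slc7a10 and Pepd were lower in Cebpa_ASKO iWAT and Rhpn2 was higher, while 7 were not called. Over the whole table the shares were 5.23% called, 3.84% lower and 1.39% higher. With the skeletal muscle share of counts as a covariate, none of the 3 stayed called, nor did Cebpa itself (adjusted p = 0.0928). The fold changes kept their direction and the errors grew: Slc7a10 was at -5.00 ± 0.954, Pepd at -0.67 ± 0.261, Rhpn2 at 1.00 ± 0.521 and Cebpa at -3.99 ± 0.293. That share did not overlap between genotypes (0.0634% to 0.0926% and 0.23% to 0.647%). The median log2 fold change was -0.02 over the 10 neighbours and 0.02 over all genes. For 4 neighbours (Slc7a10, Pepd, Rhpn2 and Chst8) the libraries of the genotypes did not overlap in CPM, as was the case for 26.1% of all genes tested.

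**Figure D1:**
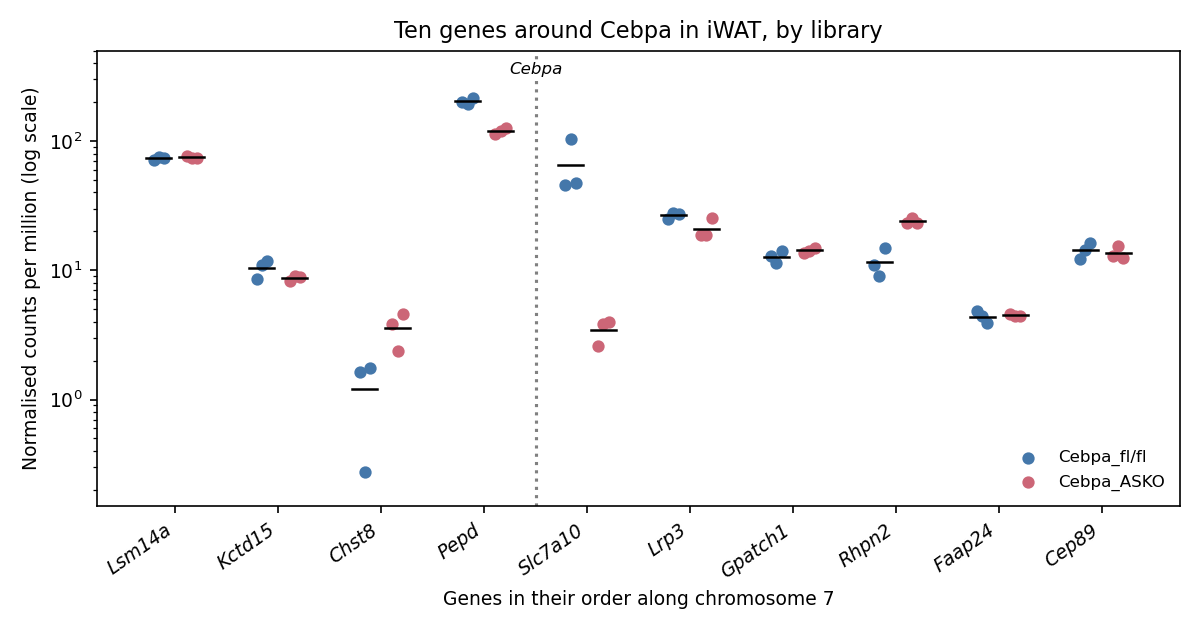
Normalised CPM (log scale) of the 10 genes in each library, in their order along chromosome 7, with Cebpa_fl/fl in blue, Cebpa_ASKO in red, each point 1 library and each black bar the mean of 3. Slc7a10 sits between 46.1 and 104 CPM in controls and between 2.60 and 3.97 CPM in Cebpa_ASKO, whereas Lsm14a stays between 71.7 and 76.6 CPM in all 6 libraries.

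Slc7a10 showed the largest change of the 10. The gene lies on the plus strand at chr7:35186385-35201114 (GRCm38), 64.5 kb beyond the end of Cebpa. It was at 46.1, 104 and 47.5 CPM in controls and at 2.60, 3.83 and 3.97 CPM in Cebpa_ASKO. Every Cebpa_ASKO library was far below every control, and 1 control stood above the other two. The mean fell from 65.9 ± 33.1 to 3.47 ± 0.755 CPM (SD, n = 3 each), 5.26% of the control mean, a log2 fold change of -4.24 ± 0.397 (SE; 95% interval -5.19 to -3.29; adjusted p = 0.00251). Without control 2, the high one, the log2 fold change was -3.76, and the call stood without any 1 library.

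Most Slc7a10 counts belonged to the coding transcript Slc7a10-201, which took 78.6% to 83.7% of the gene's counts in controls and 86.3% to 92.3% in Cebpa_ASKO. It was at 39.2, 85.4 and 36.7 CPM in controls and at 2.39, 3.34 and 3.39 CPM in Cebpa_ASKO (log2 fold change -4.14 ± 0.406, adjusted p = 0.0127 over 47600 transcripts, of which 0.964% were called and 0.861% were lower). The nonsense-mediated decay transcript Slc7a10-202 was lower as well (log2 fold change -5.14 ± 0.635, adjusted p = 0.0259). Both forms moved in the same direction as the gene. Leaving out 1 library kept the call of Slc7a10-201 in 3 of 6 fits and of Slc7a10-202 in 2 of 6.

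Set against the summed adipocyte markers, Slc7a10 stood at 1.52, 2.74 and 1.40 per 1000 marker CPM in controls and at 0.244, 0.447 and 0.425 in Cebpa_ASKO. The ratio in Cebpa_ASKO was 19.7% of that in controls, and the genotypes did not overlap, so the fall of Slc7a10 was larger than that of the markers. The 3 genes whose centred log2 CPM profile over the 6 libraries lay nearest to that of Slc7a10 by Euclidean distance were Chst1 on chromosome 2 (0.646), Ffar2 on chromosome 7 (0.719) and Gnai1 on chromosome 5 (0.794). Chst1 encodes a keratan sulfate sulfotransferase, Ffar2 a receptor for short-chain fatty acids and Gnai1 an inhibitory G protein subunit. Chst1 was at 86.1, 173 and 127 CPM in controls and at 6.59, 7.12 and 6.80 CPM in Cebpa_ASKO.

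The promoters of Slc7a10 and Rhpn2, the single-promoter neighbours called lower and higher beyond a log2 fold change of 1, are shown because the factor that was deleted binds DNA. Each window runs from 250 bases before to 50 bases after the RefSeq start (GRCm38.p6, plus strand), and capitals mark the transcribed bases.
Slc7a10, chr7:35186135-35186434: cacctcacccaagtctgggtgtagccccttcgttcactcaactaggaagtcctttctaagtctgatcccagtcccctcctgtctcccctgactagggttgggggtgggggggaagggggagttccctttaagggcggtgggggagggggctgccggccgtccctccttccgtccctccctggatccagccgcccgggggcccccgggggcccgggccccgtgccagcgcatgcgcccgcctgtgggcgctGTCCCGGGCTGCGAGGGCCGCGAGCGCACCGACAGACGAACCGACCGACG
Rhpn2, chr7:35333987-35334286: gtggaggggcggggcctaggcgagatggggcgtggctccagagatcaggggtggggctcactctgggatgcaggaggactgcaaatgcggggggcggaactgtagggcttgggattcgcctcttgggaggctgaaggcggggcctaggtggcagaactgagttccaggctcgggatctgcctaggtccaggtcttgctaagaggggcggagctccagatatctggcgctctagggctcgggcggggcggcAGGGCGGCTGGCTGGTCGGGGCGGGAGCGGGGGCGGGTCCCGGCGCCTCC
The palindromic C/EBP site TTGCGCAA and the looser TTGCNNAA, which includes it, were searched on both strands. RefSeq windows matched 9 of the 10 neighbours, with 11 windows in all, since Kctd15 has 3 and Gpatch1 none. Neither motif occurred in any of the 11 windows, nor in those of Cebpa and Cebpg. Of all 32851 windows, 0.183% held TTGCGCAA and 10.8% held TTGCNNAA. At such shares, absence from 11 windows says little. Binding sites outside the windows, or with other letters, were not searched. The windows of Slc7a10 and Rhpn2 were rich in G and C (70.7% and 69.7%, against a median of 52.7%), as were those of Chst8 (75%), Lrp3 (73.0%) and Lsm14a (70.3%), none of which was called, whereas that of Pepd was at 56.0%.

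Pepd ends 74.6 kb before Cebpa, on the plus strand at chr7:34912379-35044708. Its CPM was 201, 195 and 216 in controls and 114, 120 and 127 in Cebpa_ASKO. All Cebpa_ASKO libraries were below all controls, and both groups were tight. The mean went from 204 ± 10.9 to 120 ± 6.64 CPM, 58.9% of the control mean (log2 fold change -0.76 ± 0.0917, 95% interval -0.98 to -0.55, adjusted p = 0.0060). The call stood without any 1 library. Per 1000 CPM of the adipocyte markers, Pepd was at 5.12 to 6.65 in controls and at 10.7 to 14.0 in Cebpa_ASKO, so it fell less than the markers did.

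As the reads were divided between transcripts, most of the fall of Pepd lay in 1 noncoding transcript. Pepd-202, annotated as a retained intron, is a 1043-base transcript at chr7:35040482-35044707 that spans the last 3 exons of the 15-exon coding transcript Pepd-201. Only its first 189 bases, from intron 12, are absent from Pepd-201, so a read from the remaining 854 bases can come from either. Its start is shown here (chr7:35040482-35040700, plus strand, from the GENCODE M21 transcript), with the 189 intronic bases in capitals and the first 30 bases of exon 13 in lower case.
Pepd-202 start: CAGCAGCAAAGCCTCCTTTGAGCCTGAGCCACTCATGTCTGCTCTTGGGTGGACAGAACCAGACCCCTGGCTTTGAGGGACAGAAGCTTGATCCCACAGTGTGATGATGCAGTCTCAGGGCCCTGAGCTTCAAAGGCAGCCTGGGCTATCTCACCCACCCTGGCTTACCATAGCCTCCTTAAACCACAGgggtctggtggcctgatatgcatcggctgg
Neither C/EBP motif occurred in the capital stretch.

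Pepd-202 was at 142, 125 and 153 CPM in controls and at 52.0, 67.0 and 42.7 CPM in Cebpa_ASKO, with no overlap between genotypes. Its log2 fold change was -1.38 ± 0.185 (95% interval -1.82 to -0.93, adjusted p = 0.033 over all transcripts), although leaving out any 1 library raised the adjusted p to between 0.0687 and 0.16. The coding Pepd-201 was at 57.5, 71.3 and 54.9 CPM in controls and at 58.1, 47.2 and 80.1 CPM in Cebpa_ASKO. The groups of Pepd-201 overlapped, with 1 Cebpa_ASKO library the highest and another the lowest of the 6, and its log2 fold change was 0.01 ± 0.215 (95% interval -0.51 to 0.53, adjusted p = 0.994).

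Pepd-202 took 69.7%, 62.4% and 71.9% of Pepd counts in controls and 46.1%, 56.9% and 34.1% in Cebpa_ASKO. The ratio of Pepd-202 to Pepd-201 counts was 2.47, 1.76 and 2.78 in controls and 0.895, 1.42 and 0.533 in Cebpa_ASKO. The groups did not overlap, and the log2 ratio differed by -1.39 (exact permutation test, two-sided p = 0.10, the smallest that 3 against 3 libraries allow). With Pepd-202 left out, a choice made after its values were seen and one that leaves mainly Pepd-201, the log2 fold change of the gene was 0.01 ± 0.185. The other retained-intron transcript, Pepd-203, was at 4.15 to 4.81 CPM in controls and at 2.46 to 3.59 CPM in Cebpa_ASKO, without overlap, and was not called (log2 fold change -0.59 ± 0.236, 95% interval -1.16 to -0.02, adjusted p = 0.461).

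**Figure D2:**
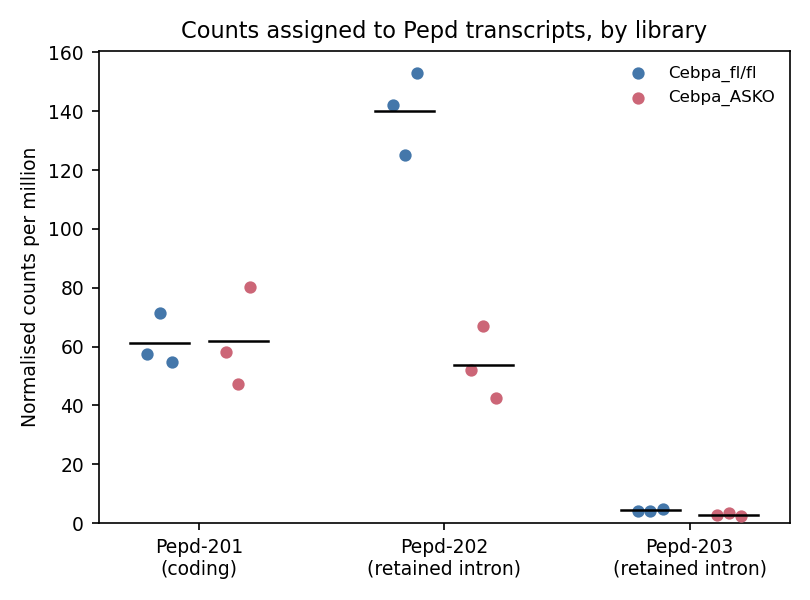
Normalised CPM assigned to the Pepd transcripts that passed the filter, with each point 1 library, Cebpa_fl/fl in blue, Cebpa_ASKO in red and black bars at the mean of 3. Pepd-202 has a mean of 140 CPM in controls and 53.9 CPM in Cebpa_ASKO, whereas Pepd-201 has means of 61.2 and 61.8 CPM.

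Rhpn2 encodes a scaffold protein and lies on the plus strand at chr7:35334170-35392289, 212 kb beyond Cebpa. It was at 11.0, 9.07 and 15 CPM in controls and at 23.3, 25.5 and 23.2 CPM in Cebpa_ASKO. All Cebpa_ASKO libraries were above all controls. The mean rose from 11.7 ± 3.02 to 24 ± 1.28 CPM, 2.06-fold (log2 fold change 1.04 ± 0.186, 95% interval 0.60 to 1.48, adjusted p = 0.0285). The call was lost when 1 library was left out in 4 of 6 cases: the adjusted p was 0.0958 without control 1 and 0.11, 0.112 and 0.0624 without Cebpa_ASKO 1, 2 and 3. Its coding transcript Rhpn2-201 held 92.0% to 96.7% of the counts and had the same log2 fold change, 1.04 ± 0.177, without passing among all transcripts (adjusted p = 0.0694).

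The summed mammary epithelial markers were also higher in Cebpa_ASKO, with no overlap. Their sum was 1340, 916 and 1960 CPM in controls and 2670, 2580 and 2660 CPM in Cebpa_ASKO, with none of the 12 markers at 0. Per 1000 CPM of these markers, Rhpn2 was at 8.19, 9.90 and 7.62 in controls and at 8.75, 9.88 and 8.75 in Cebpa_ASKO. On that scale the genotypes overlapped, with means of 8.57 ± 1.19 and 9.13 ± 0.655, a comparison made after the values were seen. Within Cebpa_ASKO, the library with the highest Rhpn2 had the lowest marker sum. Cebpg, described below, overlapped on the same scale too, at 53.6, 91.0 and 38.4 in controls and 84.5, 77.2 and 62.4 in Cebpa_ASKO. Skeletal muscle and Schwann cell marker sums were higher without overlap too, and Rhpn2 was not set against those. Per 1000 CPM of adipocyte markers, Rhpn2 was at 0.238 to 0.441 in controls and at 2.19 to 2.98 in Cebpa_ASKO. The part of any of these cells in the result was not tested.

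Chst8, which encodes a sulfotransferase that acts on terminal N-acetylgalactosamine of glycoproteins, was the lowest of the 10 genes. It was at 1.63, 0.276 and 1.74 CPM in controls and at 3.84, 2.37 and 4.56 CPM in Cebpa_ASKO. The groups did not overlap, but control 2 held only 13 counts, and the log2 fold change of 1.56 ± 0.631 (95% interval 0.06 to 3.07) was not called (adjusted p = 0.236). Per 1000 mammary marker CPM, Chst8 was at 0.301 to 1.22 in controls and at 0.920 to 1.72 in Cebpa_ASKO.

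Lrp3 encodes a member of the low-density lipoprotein receptor family and lies on the minus strand, 78.1 kb beyond Cebpa. The last 1088 bases of its annotated span overlap the end of Slc7a10 on the other strand (chr7:35200027-35201114). Only Lrp3-203, with 0.13% of Lrp3 counts, reaches that far. The other Lrp3 transcripts end at chr7:35200878 or 35200879, so their overlap is shorter. The sources used here do not say whether the counting used strand, so reads from the overlap could be assigned to either gene. Lrp3 was at 24.9, 28.0 and 27.2 CPM in controls and at 18.9, 18.6 and 25.4 CPM in Cebpa_ASKO, with an overlap between genotypes from 1 Cebpa_ASKO library. Its log2 fold change was -0.35 ± 0.14 (95% interval -0.68 to -0.02, adjusted p = 0.231). Without Cebpa_ASKO 3 it was -0.53 and passed (adjusted p = 0.0444).

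The other neighbours showed no called difference, and each is given with its 95% interval from the main fit. Lsm14a, which encodes an RNA-binding protein of processing bodies, was at 71.7 to 74.9 CPM in controls and at 73.9 to 76.6 CPM in Cebpa_ASKO (log2 fold change 0.03 ± 0.0697, 95% interval -0.14 to 0.20). Kctd15, an inhibitor of AP-2 transcription factors, was at 8.53 to 11.7 CPM in controls and at 8.21 to 9.04 CPM in Cebpa_ASKO (-0.25 ± 0.153, interval -0.62 to 0.11). Gpatch1, a G-patch protein linked to splicing, was at 11.4 to 14.0 CPM and at 13.7 to 14.8 CPM (0.16 ± 0.114, interval -0.11 to 0.43). The groups overlapped for each of these genes.

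Faap24, a DNA-binding partner of FANCM in the Fanconi anaemia core complex, was at 3.92 to 4.83 CPM in controls and at 4.44 to 4.60 CPM in Cebpa_ASKO (log2 fold change 0.03 ± 0.162, interval -0.35 to 0.42). Cep89, a protein of the centriole distal appendages, was at 12.2 to 16.2 CPM and at 12.5 to 15.4 CPM (-0.06 ± 0.146, interval -0.41 to 0.28). With the muscle share as a covariate Cep89 was at -0.56 ± 0.344, beyond that interval. Faap24 and Cep89 are transcribed away from each other from nearly the same place, and Faap24 also overlaps the last 138 bases of Rhpn2 on the other strand. Neither Faap24 nor Cep89 was called. The signs of Faap24, Cep89, Kctd15 and Lrp3 turned under some of the other settings. Of 60 annotated transcripts of the 10 genes, 31 were tested, and the 3 that passed were Slc7a10-201, Slc7a10-202 and Pepd-202, all lower, against 0.964% called and 0.861% lower over all transcripts tested. With 1 library left out, Pepd-202 lost its call in 6 of 6 fits, Slc7a10-201 in 3 and Slc7a10-202 in 4.

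Distance from Cebpa and change were then set side by side. Within 1 Mb on each side of Cebpa, 23 genes other than Cebpa were tested, and 4 were called: Pepd and Slc7a10 lower, Rhpn2 and Cebpg higher. That is 17.4%, against 5.12% of the 1290 genes tested on chromosome 7 (3.33% lower and 1.78% higher). The farthest called gene, Rhpn2, lay 212 kb from Cebpa, a limit set by the calls themselves and so no measure of an effect of distance. Up to it 6 genes were tested and beyond it 17, of which 3 had an unadjusted p below 0.05. Lrp3 and Gpatch1 lay in between and were not called. Of the 19 genes not called, 18 had a log2 fold change within 0.5 of 0, and the exception was Chst8. With 500 kb on each side, 4 of 13 tested genes were called, and with 2 Mb, 4 of 24.

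**Figure D3:**
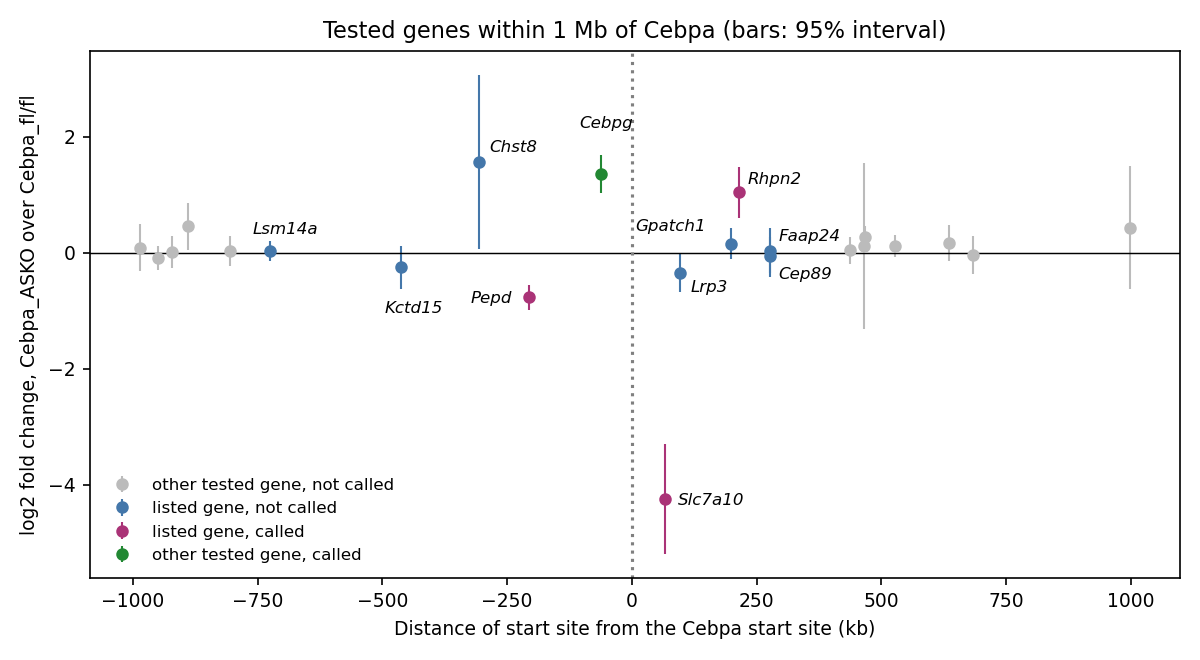
Log2 fold change (Cebpa_ASKO over Cebpa_fl/fl) of the 23 tested genes against the distance of their start site from that of Cebpa in kb, with bars for the 95% interval and the listed neighbours named. Slc7a10 lies at -4.24, Pepd at -0.76, Rhpn2 at 1.04 and Cebpg at 1.36, and genes farther out lie within 0.5 of 0 apart from Chst8, with wide bars for the genes of few counts.

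Cebpg, a C/EBP relative 62.7 kb before Cebpa and next to the end of Pepd, was at 71.7, 83.4 and 75.5 CPM in controls and at 225, 199 and 166 CPM in Cebpa_ASKO. It rose by 1.36 ± 0.135 on the log2 scale (adjusted p = 0.00316), so the genes on both sides of the deleted locus included a rise and a fall.

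In TPM, which scales reads by transcript length and library depth, the 10 genes spanned a wide range in control iWAT. Pepd was highest at 224 to 261 TPM, followed by Slc7a10 at 38.7 to 95 TPM, and these did not overlap. The rank of Pepd rests on Pepd-202, which held 75.6% to 82.2% of its TPM in controls, and the coding Pepd-201 alone, at 37.1 to 50.8 TPM, overlapped Slc7a10 and Lsm14a. Lsm14a at 36.4 to 40.4 TPM overlapped Slc7a10. Cep89, Kctd15 and Lrp3, at means of 9.97, 9.86 and 9.85 TPM, lay below Lsm14a and overlapped each other. Then came Gpatch1 (5.43 TPM), Rhpn2 (4.32 TPM) and Faap24 (3.29 TPM). Each overlapped the gene before it except Gpatch1, which lay below Lrp3. In controls Kctd15 spanned 4.56 to 13.6 TPM, a range that overlapped Gpatch1 and Rhpn2 as well. Its short transcript Kctd15-205 held 0, 5 and 6 counts but 0%, 47.0% and 45.1% of its TPM. Chst8 was lowest at 0.326 to 1.02 TPM, below Faap24. In Cebpa_ASKO, Slc7a10 moved to 1.67 to 3.89 TPM, overlapping Chst8 and Faap24, while Pepd stayed highest at 111 to 143 TPM and Rhpn2 reached 8.09 to 10.6 TPM.

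**Figure D4:**
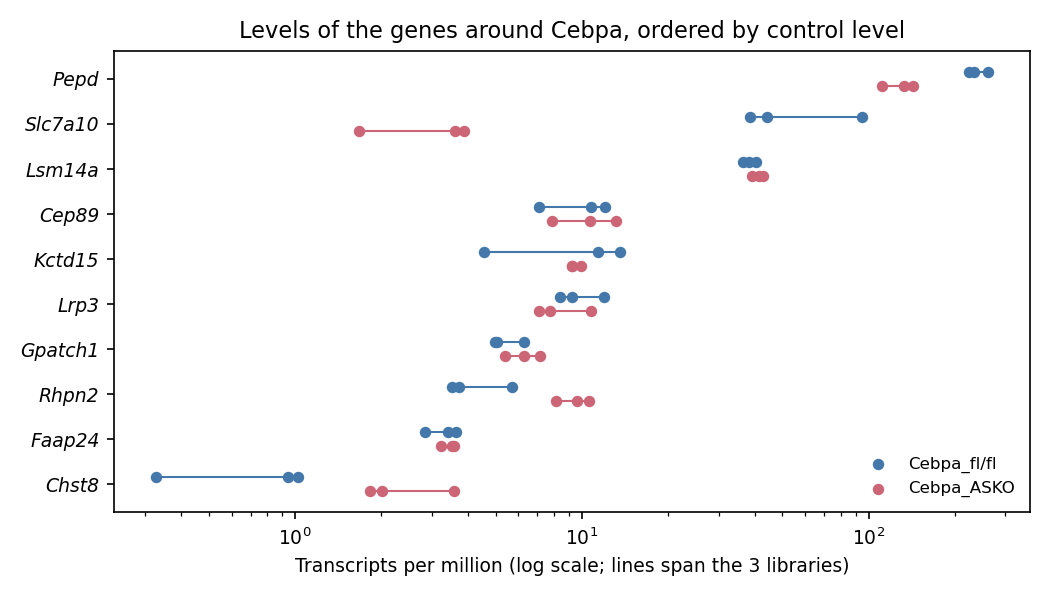
TPM (log scale) of the 10 genes, ordered by their control mean, with each point 1 library, lines spanning the 3 libraries, Cebpa_fl/fl in blue and Cebpa_ASKO in red. Slc7a10 drops from 38.7 to 95 TPM in controls to 1.67 to 3.89 TPM in Cebpa_ASKO, and Rhpn2 rises above its control range of 3.52 to 5.71 TPM.

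For the neighbours other than Rhpn2, other genes of the pathway or family were examined. Among 13 tested SLC7 and SLC3 amino acid carriers other than Slc7a10, 0 were called by edgeR or DESeq2 and 0 had an unadjusted p below 0.05. The carrier of highest level, the cationic amino acid transporter Slc7a2, was at 178 ± 124 CPM in controls and 272 ± 17.2 CPM in Cebpa_ASKO (adjusted p = 0.564). In the same list Slc7a9 and Slc7a12 were at 0 in every library. Of 22 genes of proline and prolyl dipeptide turnover besides Pepd, edgeR called 2, both lower. Prodh, the first enzyme of proline oxidation, went from 20.1 ± 2.82 to 6.09 ± 1.69 CPM (log2 fold change -1.72 ± 0.218, adjusted p = 0.00748). Aldh4a1, the next enzyme of the same route, went from 137 ± 30.0 to 53.9 ± 4.69 CPM (-1.35 ± 0.175, adjusted p = 0.00835). Oat, which links ornithine to proline synthesis and had the highest level, was not called (157 ± 27.5 and 140 ± 9.88 CPM). The summed adipocyte markers stood at 27.9% of the control level in the same libraries, and their part in these falls was not tested.

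Of 12 tested carbohydrate sulfotransferases other than Chst8, edgeR called 2, both lower. Chst1, described above beside Slc7a10, went from 129 ± 43.7 to 6.84 ± 0.267 CPM (-4.23 ± 0.271, adjusted p = 0.000771), and the chondroitin sulfotransferase Chst12 from 44.1 ± 9.25 to 20.6 ± 3.21 CPM (-1.10 ± 0.179, adjusted p = 0.0202). Of 22 tested KCTD and AP-2 genes, edgeR called 1 (DESeq2 called 4, and 8 had an unadjusted p below 0.05): Kctd12b fell (34.3 ± 4.90 to 20.6 ± 0.415 CPM, -0.73 ± 0.118, adjusted p = 0.0192), while Kctd12, an auxiliary GABA-B receptor subunit and the most abundant of the list, was not called. Of 14 LDL receptor family genes, edgeR called 1 (DESeq2 called 5, and 7 had an unadjusted p below 0.05): Lrpap1, a chaperone of the family, fell (103 ± 8.56 to 73.3 ± 3.66 CPM, -0.49 ± 0.0931, adjusted p = 0.0342), and Lrp1, a large endocytic receptor and the most abundant, was not called.

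Of 17 distal appendage and cilium genes, edgeR called 1: Cep164, an appendage protein, rose (19.9 ± 1.03 to 28.0 ± 2.22 CPM, 0.49 ± 0.0931, adjusted p = 0.0334). The small GTPase Rab8a, highest of the list, was not called. Of 20 P-body and decapping genes, edgeR called 1 and DESeq2 called 2. The edgeR call was Lsm1, a subunit of the ring that binds deadenylated RNA, which fell (23.5 ± 0.895 to 17.7 ± 0.877 CPM, -0.40 ± 0.0845, adjusted p = 0.0457). The helicase Ddx6 was not called by edgeR. In the lists of the Fanconi anaemia pathway (22 tested) and of G-patch proteins and partners (21), 0 were called by edgeR or DESeq2, and 0 in either had an unadjusted p below 0.05. The most abundant genes of these lists were Cenpx, which binds DNA with FANCM partners (adjusted p = 0.591), and the splicing cofactor Son (adjusted p = 0.654). Over these 9 lists, edgeR called 1 of 163 tested genes higher and 7 lower, 4.91% called against 5.23% of all genes tested. DESeq2 called 16 (9.82%, against 11.1% of the same 16069 genes). List medians of log2 fold change lay between -0.17 (sulfotransferases) and 0.08 (KCTD and AP-2 genes, and cilium genes), against 0.02 over all genes tested.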

How the data were processed

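Paired-end poly(A) RNA-seq libraries of 6 iWAT samples were quantified by the authors with kallisto 0.44.0, per the submitters' processing notes, which list GRCm38.p6 and also GRCh38.p12. The deposited files hold estimated counts and TPM per transcript for each library and a table of TPM per gene, and strand handling is not given in the sources used here. Transcripts were assigned to genes with GENCODE M21 (116816 of 118489 matched, 98.6%), and estimated counts were summed by symbol and rounded. Kallisto divides reads between overlapping transcripts by estimation, so counts of single transcripts are less certain than their sum, and genes that overlap on opposite strands can exchange reads.

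The main test was edgeR 4.0.16 (quasi-likelihood, TMM scaling, filterByExpr, R 4.3.3) over all 16069 genes passing the filter, with Benjamini-Hochberg adjustment and calls at 0.05. CPM are TMM-scaled, with separate scaling for the fit over 47600 transcripts, and errors of fold changes are SE. Values after ± beside CPM means are SD of 3 libraries. The model was also run on counts simulated with the spread estimated from these same libraries. Such a run cannot test factors that differ with genotype or how reads were divided between transcripts. Alternatives were DESeq2 1.42.0, which the study used, limma 3.58.1 on log2(TPM + 1) and log2(TPM + 0.1) for genes at 1 TPM in 3 libraries, other scaling and filters, a length offset, a replicate block, a covariate for the share of muscle marker counts, and fits that left out a library. Total counts were 33141769 to 49477671 per library, and the 10 genes had 13 to 10202 counts in a library. No library duplicated another.

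The members, the 9 pathway lists and the 9 marker lists were chosen with earlier results of these data known. The pathway list for Rhpn2 is not reported here. Named were all members, Cebpa and Cebpg, called genes within 1 Mb, the called genes (up to 3) and the most abundant gene of each list, and the 3 genes nearest in profile to the called member with the largest change, leaving out predicted genes and clones. Each library is taken as 1 mouse, so p-values rest on the spread between 3 mice a group. Promoter sequences came from RefSeq.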

Additional observations from a re-analysis of the deposited data

How the results depend on the processing

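Over 17 refits of all genes, Slc7a10, Pepd and Cebpa stayed called and lower in 16 each. The exception was the muscle share as a covariate, which left 0 genes called by edgeR over all genes (931 at an unadjusted p below 0.05, against 3185 without it): Cebpa was at -3.99 (adjusted p = 0.0928), and 0 members and 0 genes within 1 Mb were called in either direction, with Slc7a10 at -5.00, Pepd at -0.67 and Rhpn2 at 1.00. Muscle share (0.0634% to 0.0926% of counts in controls, 0.23% to 0.647% in Cebpa_ASKO) and genotype cannot be told apart. Rhpn2 kept its direction throughout but was called in 10 of 17. No member was called higher, and 1 gene within 1 Mb was, under limma on log2(TPM + 1) without a filter (74 genes higher and 285 lower in all) and under the replicate block (74 and 296, Rhpn2 at 1.07 with adjusted p = 0.0847). Same-numbered libraries correlated at 0.0662, 0.0278 and -0.201 in their deviations, which shows no pairing by number. Deviations from a mean of 3 libraries cannot exclude a pairing. The paper states that the genotypes were littermates, and the sample details used here give no litter. The replicate block changed no member's call other than that of Rhpn2. DESeq2 called 676 genes higher and 1137 lower. A further limit of 1 on the size of the log2 fold change left 1 member lower (Slc7a10, without Pepd) and 129 genes higher and 366 lower. Leaving out 1 library gave 0 to 1 members higher and 2 to 3 lower, 1 to 2 genes within 1 Mb higher and 2 to 3 lower, and 33 to 264 genes higher and 278 to 658 lower in all; fewer libraries leave less power.

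Signs turned as follows. Faap24 was at -0.01 with the length offset and at -0.04 to 0.11 with 1 library left out (lowest without control 3). Cep89 was at 0.02 with the length offset, at 0.08, 0.09 and 0.08 in the limma fits (log2(TPM + 1), log2(TPM + 0.1) and no filter) and at -0.17 to 0.04 with 1 library left out (highest without control 3). Kctd15 was at 0.06, 0.08 and 0.06 in the same limma fits. Lrp3 was at 0.08 with the muscle covariate, Pepd at 0.01 without Pepd-202, and Pepd-201 between -0.22 and 0.18 with 1 library left out, with values of -0.03 and -0.06 among them. The cause of these changes was not tested. Depth limits Chst8 most, with 13 counts in control 2.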
